A study of Mus musculus with 12 samples.

Results

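The genes described here encode the enzymes of glycolysis with the glucose and lactate carriers of the plasma membrane, the pyruvate dehydrogenase kinases and the bifunctional PFKFB enzymes. They are a fixed list of 32 gene symbols, chosen by function, out of 18193 genes that have a probe set of their own on the array. Of the 32, 28 had such a probe set and 4 did not: for Gpi1, Eno1 and Pfkfb1 no probe set with that gene alone was found in the annotation used here, and Gapdh was read by control probe sets or by probe sets listing several genes. A gene with several probe sets was read on the one with the highest mean over the 12 arrays. Pdk2 and Pdk4 fell below the limit for low values, which left 26 members among 13698 genes tested.

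The study measured RNA of progenitor cells from mouse embryonic stem cells with single-colour Affymetrix arrays. The stem cells had been differentiated in hanging drops to embryoid bodies, dissociated on day 6 and sorted by flow cytometry on a pair of transgenic reporters that all groups carry, dsRed under a second heart field enhancer and eGFP under a cardiac enhancer. Double-positive cells had both colours, red-only cells had dsRed alone, green-only cells had eGFP alone and double-negative cells had neither. There were 3 arrays for each population, and the experiments are lettered A, B and C. The second heart field gives rise to the outflow tract and right ventricle. A colour reports activity of a transgenic enhancer and not of a single cell type, and the double-negative gate holds every cell of the embryoid body without either colour. The labels do not say whether the 3 experiments were separate cultures, so p-values measure only the spread between these arrays, which may be technical.

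Glycolysis splits glucose into pyruvate in the cytosol and yields ATP without oxygen. Most of its steps exist as isoenzymes from separate genes, and muscle uses its own forms of several of them. Pyruvate either becomes lactate through lactate dehydrogenase and leaves through a monocarboxylate transporter, or enters mitochondria through pyruvate dehydrogenase, which the pyruvate dehydrogenase kinases switch off. Early embryonic cells and fetal heart rely strongly on glycolysis, and heart muscle turns towards oxidation of fatty acids as it matures.

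Values are linear intensities of probe sets, with no read depth, and the number of arrays limits the precision. Array medians lay between 6.29 and 6.73 units, and single values between 2.09 and 8820. The summed intensity of 6 cardiomyocyte markers (all 6 tested) was 14859 to 18211 in double-positive, 3078 to 4565 in red-only, 7845 to 10164 in green-only and 328 to 468 in double-negative arrays. Summed pluripotency markers (5 genes) reached at most 132 in the populations with a colour, against 1298 to 1583 in double-negative arrays. Summed primitive erythroid markers (6 genes) reached at most 148, against 1078 to 1972 in double-negative arrays. Summed endothelial markers (5 genes) were 156 to 225 in double-positive, 391 to 564 in red-only, 227 to 688 in green-only and 104 to 192 in double-negative arrays, and 3 proliferation markers summed to 702 to 803, 782 to 957, 912 to 969 and 945 to 1066 in that order. In sorted bulk samples such as these, fewer cells of a type and less RNA per cell cannot be told apart. The annotation lists no dsRed or eGFP probe set, and reporter RNA could not be read. An intensity of one probe set was not set against that of another.

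Glycolytic genes were mostly highest in double-positive cells and lowest in red-only cells. Of the 26 members tested, 17 had their highest mean in double-positive, 1 in red-only, 2 in green-only and 6 in the double-negative population. Over all genes tested, 28.3% had their highest mean in double-positive cells. The lowest mean fell in red-only cells for 16 members, against 23.8% of all genes. The limma F-test over the 4 populations called 19 of the 26 members at a Benjamini-Hochberg adjusted p under 0.05, against 32.3% of all genes. The 7 members it did not call were Pfkl, Pgk1, Pgam1, Pkm, Pklr, Slc16a3 and Pfkfb3.

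In double-positive against double-negative cells 17 of 26 members were called, where 31.5% of all genes were. Of these, 14 were higher (13.9% of all genes) and 3 lower (17.6%), and the arrays did not overlap for 16 higher and 3 lower members (44.6% of all genes in either direction). The median log2 fold change of the 26 was 0.45, beside -0.01 over all genes. In red-only against double-negative cells 7 of 26 were called (23.6% of all genes), 2 higher (10.9%) and 5 lower (12.7%), with a median of -0.09. Arrays did not overlap there for 3 higher and 6 lower members (37.9% of all genes). In green-only against double-negative cells 6 of 26 were called (20.7% of all genes), 5 higher (9.34%) and 1 lower (11.4%), with a median of 0.14. Arrays did not overlap there for 7 higher and 3 lower members (32.6% of all genes).

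The share called in red-only cells and that in green-only cells were thus near those of all genes. With the experiment as a replicate block, the members called were 18 in double-positive cells (35.6% of all genes), 10 in red-only cells (28.4%) and 9 in green-only cells (25.3%). The block added Slc16a3 in double-positive cells (adjusted p = 0.00651), Eno2, Pfkl and Slc2a4 in red-only cells (0.00223, 0.0357 and 0.0274) and Hk2, Slc2a4 and Tpi1 in green-only cells (0.00381, 0.0343 and 0.0180). The F-test then called 23 members (39.0% of all genes). These 3 comparisons share the double-negative arrays. All members that rose in double-positive cells code for enzymes or kinases except Slc2a4, and all 3 that fell code for carriers.

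**Figure D1:**
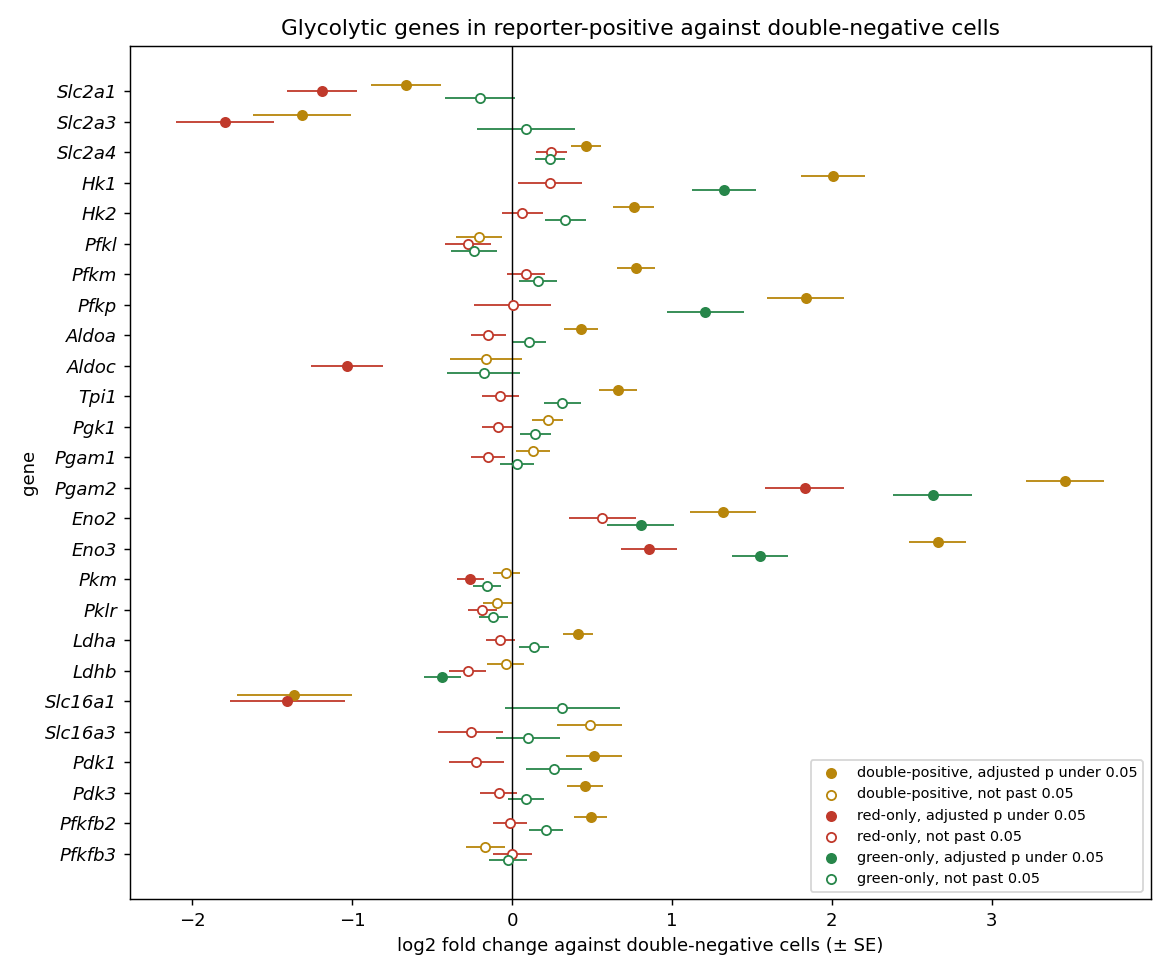
The horizontal axis gives the log2 fold change of 26 genes in 3 populations relative to double-negative cells, with bars of 1 SE from the limma fit (3 arrays per population), and filled points passed an adjusted p of 0.05. Pgam2 reached 3.46, 1.83 and 2.63 in the 3 populations, while Slc2a3 and Slc16a1 lay below 0 in double-positive and red-only cells.

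The muscle forms of phosphoglycerate mutase and enolase had the largest differences of the 26 members between double-positive and double-negative cells. Pgam2 encodes the muscle subunit of phosphoglycerate mutase, which moves the phosphate of 3-phosphoglycerate. Its intensity in experiments A, B and C was 342, 151 and 176 in double-positive cells, 68.7, 54.4 and 72.8 in red-only cells, 125, 109 and 114 in green-only cells and 18.3, 10.8 and 17.7 in double-negative cells. No array of one population overlapped with those of another, and experiment B was lowest in each. Against double-negative cells the log2 fold change was 3.46 ± 0.24 in double-positive (SE, adjusted p = 3.35e-07), 1.83 ± 0.24 in red-only (adjusted p = 0.000161) and 2.63 ± 0.24 in green-only cells (adjusted p = 8.85e-06). Double-positive cells exceeded red-only cells by 1.63 ± 0.24 (adjusted p = 0.00079). They lay 0.83 ± 0.24 above green-only cells (adjusted p = 0.0703, and 0.0105 with the experiment as a replicate block).

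Eno3 encodes the beta enolase of muscle, which forms phosphoenolpyruvate. It read 561, 451 and 459 in double-positive cells, 153, 109 and 153 in red-only cells, 202, 221 and 251 in green-only cells and 88.5, 54.0 and 83.4 in double-negative cells. The populations again kept apart without overlap, in the same order as for Pgam2. The log2 fold change against double-negative cells was 2.66 ± 0.18 in double-positive (adjusted p = 1.83e-07), 0.86 ± 0.18 in red-only (adjusted p = 0.00318) and 1.55 ± 0.18 in green-only cells (adjusted p = 4.98e-05). Eno3 was also higher in double-positive than in red-only cells (1.80 ± 0.18, adjusted p = 2.70e-05) and than in green-only cells (1.11 ± 0.18, adjusted p = 0.00351). Eno2, the gamma enolase known best from neurons, averaged 45.6 ± 7.69 in double-positive, 25.8 ± 7.91 in red-only, 30.7 ± 6.08 in green-only and 16.1 ± 5.17 in the double-negative population (SD, n = 3 each). It rose in double-positive (1.32 ± 0.21, adjusted p = 0.000319) and green-only cells (0.80 ± 0.21, adjusted p = 0.0145) against double-negative cells. The green-only call was lost without double-negative A, double-negative B or green-only C (adjusted p up to 0.0652).

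The order of Pgam2 and Eno3 was that of the summed cardiomyocyte markers. The means of Hk1, Hk2, Pfkm, Pfkp and Eno2 had the same order, so it was not particular to muscle forms. The part of these markers' cells in the levels was not tested. Of 7 skeletal muscle markers 5 were tested, and their sum was 57.4 to 75.4 in double-positive, 39.7 to 46.5 in red-only, 44.6 to 52.9 in green-only and 42.7 to 51.4 in double-negative arrays. The skeletal myogenic factors Myod1 and Myog averaged 6.41 ± 0.645 and 7.27 ± 1.18 in double-positive cells, near the array medians. Mylpf, a fast myosin light chain, was the only one called, at 23.9 ± 7.23 in double-positive and 10.7 ± 1.47 in double-negative cells (0.89 ± 0.18, adjusted p = 0.0018).

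**Figure D2:**
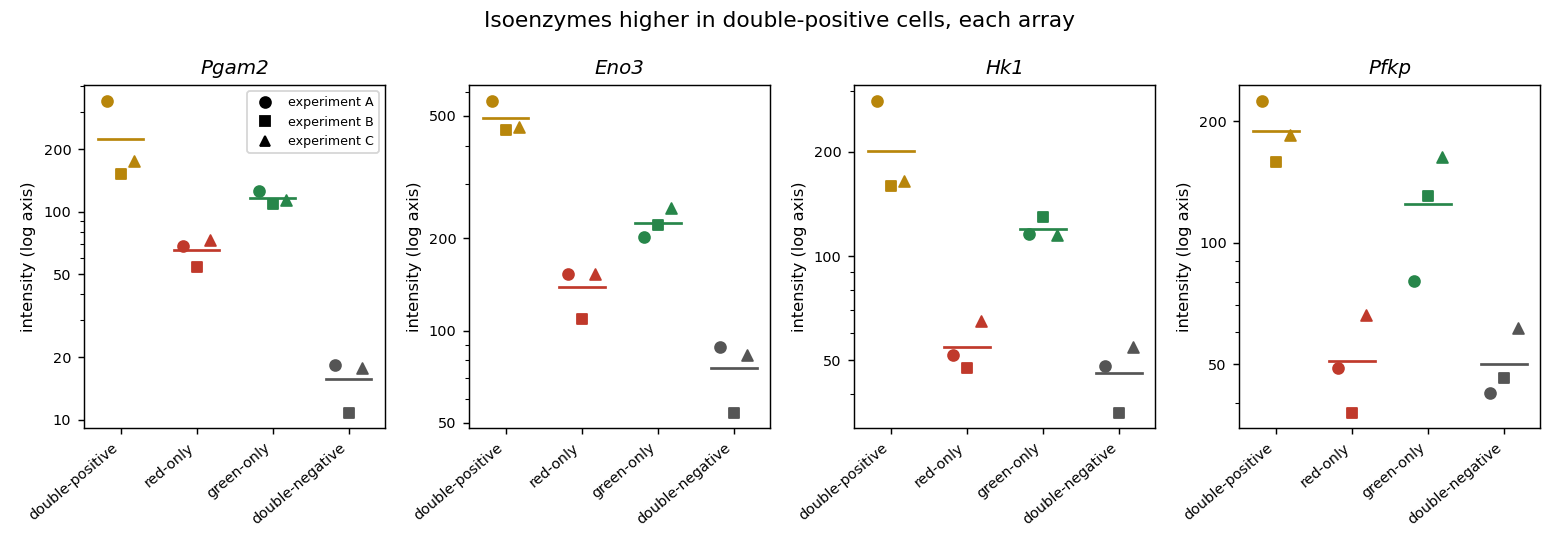
Each panel plots the intensity of 1 gene on a log axis for the 4 populations, with symbols for experiments A, B and C and a line at the mean of 3 arrays. Pgam2 and Eno3 separate all 4 populations, while red-only and double-negative arrays overlap for Hk1 and Pfkp.

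The sequences before the transcription start sites of Pgam2 and Eno3, which moved together, and of Slc16a1, which moved the other way, show what the motif counts below refer to. They are 250 bases each from RefSeq on GRCm38.p6, written on the strand of the gene. Pgam2 lies at chr11:5803797-5804046 (minus strand), Eno3 at chr11:70656926-70657175 (plus strand) and Slc16a1 at chr3:104638414-104638663 (plus strand). Capitals mark the one MEF2 motif in Pgam2, and matches to ACGTG or GCGTG on either strand in Eno3 and Slc16a1.
Pgam2: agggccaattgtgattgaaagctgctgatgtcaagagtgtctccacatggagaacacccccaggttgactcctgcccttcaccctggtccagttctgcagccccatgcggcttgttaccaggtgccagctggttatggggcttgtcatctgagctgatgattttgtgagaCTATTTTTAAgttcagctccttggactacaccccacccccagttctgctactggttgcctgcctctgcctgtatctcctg
Eno3: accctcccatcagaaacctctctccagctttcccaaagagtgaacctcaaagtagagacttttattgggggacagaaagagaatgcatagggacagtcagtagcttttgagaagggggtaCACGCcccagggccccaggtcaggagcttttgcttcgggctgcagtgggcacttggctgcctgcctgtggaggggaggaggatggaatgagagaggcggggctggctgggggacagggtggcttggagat
Slc16a1: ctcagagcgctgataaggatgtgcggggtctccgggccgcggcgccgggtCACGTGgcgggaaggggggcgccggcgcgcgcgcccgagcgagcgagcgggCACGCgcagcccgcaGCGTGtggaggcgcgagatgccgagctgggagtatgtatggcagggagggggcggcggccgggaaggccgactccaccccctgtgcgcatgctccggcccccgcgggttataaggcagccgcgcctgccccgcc

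RefSeq promoter windows of 300 bases, from 250 before to 50 after the start, were found for 30 of the 32 members, with 50 windows in all because some genes have several starts. The core ACGTG of hypoxia response elements stood on either strand in 42.0% of the member windows and in 19.6% of all 32851 windows. GCGTG, its other common form, stood in 25 of the 50 member windows and in 32.4% of all windows. CACGTG, the E-box of Myc and related factors, which contains ACGTG, stood in 6 member windows and in 7.15% of all. The MEF2 motif stood in 2 member windows (3.19% of all windows), the CArG box in 1 (1.63%) and GATAA in 13 (25.4%). In the printed windows the MEF2 motif of Pgam2 began 80 bases before the start, and Slc16a1 had an E-box 200 bases before it. A match is a description of letters and not a site of binding.

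The first committed steps also differed by isoenzyme. Hk1 encodes the hexokinase that most tissues hold on mitochondria. It read 281, 159 and 164 in double-positive cells, 51.7, 47.6 and 64.7 in red-only cells, 116, 129.6 and 115 in green-only cells and 48.1, 35.3 and 54.5 in double-negative cells. Double-positive and green-only arrays lay above all arrays of the other populations, and red-only and double-negative arrays overlapped. Hk1 rose by 2.01 ± 0.20 in double-positive (adjusted p = 7.21e-06) and by 1.33 ± 0.20 in green-only cells (adjusted p = 0.000443) against double-negative cells, with 0.24 ± 0.20 in red-only cells (adjusted p = 0.464). Hk2, the insulin-responsive hexokinase of muscle and fat, read 403, 321 and 393 in double-positive, 229, 201 and 255 in red-only, 298, 239.6 and 289.8 in green-only and 241, 185 and 229.8 in double-negative cells. All double-positive arrays were highest for Hk2, at 0.76 ± 0.13 over double-negative (adjusted p = 0.000591) and 0.70 ± 0.13 over red-only cells (adjusted p = 0.0035).

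Phosphofructokinase, the main control point of glycolysis, is encoded by Pfkl (liver form), Pfkm (muscle form) and Pfkp (platelet form). Pfkp read 225, 159 and 185 in double-positive cells, 48.9, 38.0 and 66.1 in red-only cells, 80.5, 131 and 163 in green-only cells and 42.5, 46.3 and 61.7 in double-negative cells. Green-only A was its lowest green-only array and still above every red-only and double-negative array. The log2 fold change against double-negative cells was 1.84 ± 0.24 in double-positive (adjusted p = 7.08e-05), 0.01 ± 0.24 in red-only (adjusted p = 0.993) and 1.21 ± 0.24 in green-only cells (adjusted p = 0.00303). Pfkm read 179.7, 159 and 159 in double-positive, 104, 87.8 and 114 in red-only, 88.8, 118 and 116 in green-only and 100.2, 90.7 and 94.7 in double-negative cells. Double-positive arrays stood above all others, by 0.77 ± 0.12 over double-negative (adjusted p = 0.000239), 0.68 ± 0.12 over red-only (adjusted p = 0.00205) and 0.61 ± 0.12 over green-only cells (adjusted p = 0.0105, and 0.0525 with only the 6 arrays compared). Pfkl averaged 605 ± 116 in double-positive, 578 ± 112 in red-only, 585 ± 34.6 in green-only and 693 ± 55.6 in the double-negative population and passed in no comparison (-0.21 ± 0.14 in double-positive against double-negative cells, 95% interval -0.52 to 0.10).

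Tpi1, triose phosphate isomerase, read 994, 1146 and 1096 in double-positive, 573, 612 and 768 in red-only, 737, 919.5 and 895 in green-only and 645, 659 and 738 in double-negative cells. Double-positive arrays were above all others (0.66 ± 0.12 over double-negative, adjusted p = 0.000814, and 0.73 ± 0.12 over red-only cells, adjusted p = 0.00131). Aldoa, the aldolase of muscle and most embryonic tissue, averaged 3234 ± 187 in double-positive, 2167 ± 226 in red-only, 2595 ± 361 in green-only and 2398 ± 147 in the double-negative population. It was higher in double-positive cells than in double-negative (0.43 ± 0.11, adjusted p = 0.00819) and red-only cells (0.58 ± 0.11, adjusted p = 0.00353). The probe sets of Aldoa and Pgk1 carry the suffix for probes shared with other transcripts, as does that of Slc2a3, and related sequences can add to their signal.

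Gapdh, which oxidises glyceraldehyde 3-phosphate, was read on a control probe set, an alternative chosen after seeing the data. Its middle control probe set read 5887, 6173 and 6136 in double-positive, 4476, 4307 and 5022 in red-only, 4834, 5500.4 and 5264 in green-only and 4699, 4989 and 5119 in double-negative cells. Double-positive arrays stood above all others, by 0.30 ± 0.08 over double-negative (adjusted p = 0.0117) and 0.40 ± 0.08 over red-only cells (adjusted p = 0.00519). Gapdh, often used as a constant control gene, therefore differed here between sorted populations. Pgk1, the first ATP-forming enzyme, averaged 4559.5 ± 201 in double-positive, 3674 ± 278 in red-only, 4336 ± 399.7 in green-only and 3917 ± 367 in the double-negative population. Its one call, double-positive over red-only (0.31 ± 0.10, adjusted p = 0.0499), was lost in 8 of the 12 fits without 1 array (adjusted p up to 0.182): without any of the double-positive or red-only arrays, and without double-negative A or C. Pgam1, the brain and general form of phosphoglycerate mutase, averaged 894 ± 49.8 in double-positive, 735 ± 67.5 in red-only, 836 ± 109.9 in green-only and 816 ± 71.6 in the double-negative population and passed in no comparison, though double-positive over red-only passed with the replicate block (0.28 ± 0.07, adjusted p = 0.0125).

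Aldoc, the aldolase of brain, had another pattern. It read 96.2, 49.8 and 76.4 in double-positive, 39.0, 29.3 and 45.4 in red-only, 66.1, 63.7 and 84.2 in green-only and 104, 62.7 and 80.3 in double-negative cells. Red-only arrays lay below all others. The sum of 4 neural markers (Sox1, Pax6, Nes and Tubb3, all tested) was also lowest there, at 120 to 149 in double-positive, 95.2 to 101 in red-only, 108 to 136 in green-only and 112 to 158 in double-negative arrays. Of these markers 1 was higher in double-positive than in red-only cells (5.94% of all genes). Against double-negative cells 2 were lower in red-only (12.7%), 1 in double-positive (17.6%) and 1 in green-only cells (11.4%). Eno2 did not share this pattern, as its lowest mean was in double-negative cells. The part of neural markers in the levels of Aldoc and Eno2 was not tested. The log2 fold change of Aldoc in red-only against double-negative cells was -1.03 ± 0.23 (adjusted p = 0.00476), and that in double-positive against red-only cells 0.87 ± 0.23 (adjusted p = 0.0235). The second of these was lost without double-positive A, red-only A, red-only B or double-positive C (adjusted p up to 0.106). Red-only cells lay 0.85 ± 0.23 below green-only cells on the log2 scale, which passed only with the replicate block (adjusted p = 0.00403) and under 4 other settings.

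At the end of the pathway, the signal of the pyruvate kinase genes changed little. Pkm had 1 probe set, so splice forms of its transcript were not told apart. Pkm, the muscle and embryonic pyruvate kinase gene, averaged 2345 ± 118 in double-positive, 2011 ± 214 in red-only, 2156 ± 80.3 in green-only and 2405 ± 134 in the double-negative population. The red-only value was called lower than the double-negative one (-0.26 ± 0.09, adjusted p = 0.043), a call lost in 10 of the 12 fits without 1 array (adjusted p up to 0.169), that is without any array but green-only A and red-only C. Pklr, the liver and red cell form, averaged 48.9 ± 3.62 in double-positive, 45.6 ± 4.41 in red-only, 48.0 ± 4.66 in green-only and 52.3 ± 2.31 in the double-negative population and passed in no comparison. Ldha, the lactate dehydrogenase subunit of fast muscle, read 4133, 4189 and 4397 in double-positive, 2663, 3042 and 3409 in red-only, 3217, 3496 and 3796 in green-only and 3182, 3084 and 3272 in double-negative cells. Double-positive arrays were highest, by 0.41 ± 0.09 over double-negative (adjusted p = 0.00405) and 0.49 ± 0.09 over red-only cells (adjusted p = 0.00413).

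Ldhb, the subunit of adult heart, did not share that rise. It read 306, 241 and 226 in double-positive, 238, 199 and 212 in red-only, 198, 207 and 175 in green-only and 259, 247 and 283 in double-negative cells. Green-only arrays lay below double-negative arrays (-0.44 ± 0.12, adjusted p = 0.0164), a call lost without green-only C or double-negative C (adjusted p up to 0.0709). Double-positive arrays overlapped with double-negative arrays (-0.04 ± 0.12, 95% interval -0.29 to 0.21). Without the replicate block, Ldhb was the only member called in the test of the reporter interaction, and with it 11 were. That test compares differences between sorted populations and not effects of a reporter. The double-positive minus red-only difference exceeded the green-only minus double-negative difference by 0.67 ± 0.16 (adjusted p = 0.0195), against 10.5% of all genes called, 4.80% above 0 and 5.67% below. Without red-only B the adjusted p was 0.0519 and no member was called.

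Of the 5 carriers tested, Slc2a1, Slc2a3 and Slc16a1 fell in double-positive and red-only cells against double-negative cells, while Slc2a4 rose in double-positive cells and Slc16a3 had its highest mean there. Slc2a3 encodes GLUT3, a high-affinity glucose transporter of neurons and the early embryo. It read 1388, 756 and 1205 in double-positive cells, 966, 486 and 989 in red-only cells, 4395, 2239 and 2396 in green-only cells and 2745, 2351 and 3039 in double-negative cells. Double-positive and red-only arrays lay below all green-only and double-negative arrays. The log2 fold change against double-negative cells was -1.32 ± 0.31 in double-positive (adjusted p = 0.00507), -1.79 ± 0.31 in red-only (adjusted p = 0.000974) and 0.09 ± 0.31 in green-only cells (adjusted p = 0.9). Against green-only cells, double-positive cells stood at -1.40 ± 0.31 (adjusted p = 0.0184) and red-only cells at -1.88 ± 0.31 (adjusted p = 0.00494). The double-positive call against green-only cells was lost without double-positive B (adjusted p = 0.0748), and also on a probe set without shared probes. It was lost too with the intensity trend and robust option (0.0681) and with only the 6 arrays compared (0.0615).

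Slc2a1 encodes GLUT1, the general glucose transporter of embryonic tissue. It read 805, 509 and 645 in double-positive, 528, 336 and 497 in red-only, 1140.0, 666 and 919 in green-only and 1069, 868 and 1136 in double-negative cells. Experiment B was lowest in each population. Red-only cells had less than double-negative (-1.19 ± 0.22, adjusted p = 0.00161) and green-only cells (-0.99 ± 0.22, adjusted p = 0.0287), and double-positive cells less than double-negative cells (-0.66 ± 0.22, adjusted p = 0.0346). The last of these calls was lost without double-negative A, double-positive B, double-positive C or double-negative C (adjusted p up to 0.149). It was also lost without the filter on low values (0.0569) and with the intensity trend and robust option (0.0671). The call of red-only against green-only cells was lost without green-only A, red-only B or green-only C (up to 0.121). That call was also lost under the same 2 settings (0.0521 and 0.0677) and with only the 6 arrays compared (0.0915). Slc2a4 encodes GLUT4, the insulin-regulated transporter of muscle and fat, and read 28.4, 23.2 and 27.3 in double-positive, 24.4, 19.5 and 22.3 in red-only, 22.3, 19.8 and 23.7 in green-only and 19.2, 17.6 and 17.0 in double-negative cells. Double-positive, red-only and green-only arrays all lay above the double-negative arrays, and the double-positive difference passed (0.46 ± 0.10, adjusted p = 0.00231). Those of red-only and green-only cells, 0.25 ± 0.10 and 0.24 ± 0.10, passed with the replicate block (adjusted p = 0.0274 and 0.0343).

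Slc16a1 encodes MCT1, which carries lactate and pyruvate with a proton. It read 231, 165 and 231 in double-positive cells, 244, 131 and 250.2 in red-only cells, 1283, 437 and 535 in green-only cells and 557, 393 and 708 in double-negative cells. Double-positive and red-only arrays were all below the others, and green-only A was the highest array. The log2 fold change against double-negative cells was -1.36 ± 0.36 in double-positive (adjusted p = 0.0106) and -1.41 ± 0.36 in red-only cells (adjusted p = 0.0118). Against green-only cells it was -1.68 ± 0.36 in double-positive (adjusted p = 0.017) and -1.72 ± 0.36 in red-only cells (adjusted p = 0.0214). Each of these 4 calls was lost without some array: double-negative C, red-only B or double-negative C, double-positive B, and red-only B, in that order of the comparisons, with adjusted p of up to 0.0976. The double-positive and red-only calls against green-only cells were also lost with the intensity trend and robust option (adjusted p = 0.0633 and 0.0821). The same held with only the 6 arrays compared (0.0659 and 0.0996). Slc16a3, the MCT4 lactate exporter of glycolytic cells, averaged 509 ± 60.3 in double-positive, 307 ± 81.0 in red-only, 399 ± 119 in green-only and 361 ± 27.7 in the double-negative population. Double-positive cells exceeded red-only cells (0.75 ± 0.20, adjusted p = 0.0297), a call lost without red-only A, double-positive B, red-only B or double-positive C (adjusted p up to 0.126).

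The levels of Slc2a1, Slc2a3 and Slc16a1 followed those of endoderm markers in part. The summed intensity of the 5 markers Afp, Ttr, Foxa2, Sox17 and Apoa1, all tested and none at 0, was 157, 81.2 and 118 in double-positive, 175, 78.0 and 139.9 in red-only, 959, 176 and 302 in green-only and 534, 168 and 343 in double-negative arrays of experiments A, B and C. Experiment B was lowest in each population and green-only A highest of all. In double-negative cells, however, the carriers Slc2a1, Slc2a3 and Slc16a1 were highest in experiment C (1136, 3039 and 708) and the marker sum in A. With the replicate block Slc2a1 was higher in double-positive than in red-only cells (0.52, adjusted p = 0.00252), where the marker sums overlapped. Of the 26 members, 6 were lowest in experiment B in all 4 populations: these carriers, Hk2, Aldoc and Pgam2. Of the 5 single genes, 2 were lower in double-positive cells against double-negative cells, where 17.6% of all genes were lower. They were Foxa2 (-1.47 ± 0.37, adjusted p = 0.00802) and Sox17 (-1.04 ± 0.28, adjusted p = 0.0128). Foxa2 was also lower in red-only cells against double-negative cells (-1.20 ± 0.37, adjusted p = 0.0311). Against green-only cells Sox17 was lower in double-positive (-1.86 ± 0.28, adjusted p = 0.00284) and red-only cells (-1.45 ± 0.28, adjusted p = 0.0154). The part of these markers' cells in the carrier levels was not tested.

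**Figure D3:**
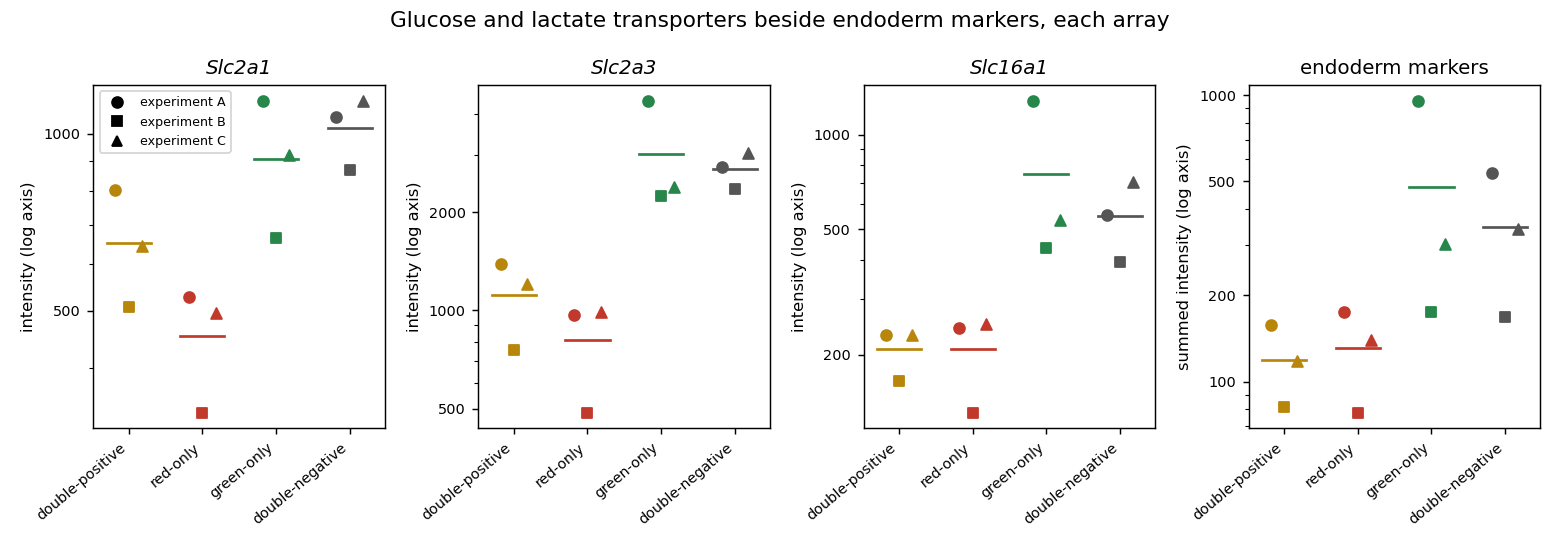
The first 3 panels plot the intensity of the carriers Slc2a1, Slc2a3 and Slc16a1, and the last the summed intensity of 5 endoderm markers, on log axes for the 4 populations, with symbols for experiments A, B and C and a line at the mean of 3 arrays. Double-positive and red-only arrays lie below all others for Slc2a3 and Slc16a1, and green-only A is the highest array for Slc2a3, Slc16a1 and the endoderm markers.

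Kinases that restrain the entry of pyruvate into mitochondria rose in double-positive cells. Pdk3 averaged 91.6 ± 12.6 in double-positive, 61.4 ± 6.79 in red-only, 69.6 ± 6.44 in green-only and 65.2 ± 5.05 in the double-negative population, with double-positive over double-negative at 0.46 ± 0.11 (adjusted p = 0.00704) and over red-only at 0.54 ± 0.11 (adjusted p = 0.00667). Pdk1, a hypoxia-responsive kinase, averaged 156 ± 11.5 in double-positive, 93.3 ± 19.6 in red-only, 132 ± 27.3 in green-only and 109.6 ± 22.9 in the double-negative population. Its differences were 0.74 ± 0.17 over red-only cells (adjusted p = 0.0143) and 0.51 ± 0.17 over double-negative cells (adjusted p = 0.0395). The call over double-negative cells was lost in 5 of the 12 fits without 1 array (adjusted p up to 0.17), without double-negative A or B or any double-positive array, and that over red-only cells without red-only A, red-only B or double-positive C (up to 0.0643). Pdk2 (6.23 ± 0.885 in double-positive, 3.85 ± 0.317 in double-negative cells) and Pdk4 (3.86 ± 0.122 and 3.57 ± 0.503 in the same 2 populations) lay at or under the array medians and were not tested.

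Pfkfb2 and Pfkfb3 make and remove fructose 2,6-bisphosphate, the activator of phosphofructokinase. Pfkfb2, the heart form, averaged 15.6 ± 3.28 in double-positive, 9.64 ± 0.402 in red-only, 11.96 ± 0.710 in green-only and 9.77 ± 0.587 in the double-negative population. Double-positive cells exceeded double-negative (0.49 ± 0.10, adjusted p = 0.00278) and red-only cells (0.50 ± 0.10, adjusted p = 0.00664), but another probe set of Pfkfb2 gave -0.04 against double-negative cells. Pfkfb3, the inducible form, averaged 16.0 ± 0.837 in double-positive, 18.5 ± 1.66 in red-only, 18.1 ± 1.83 in green-only and 18.7 ± 4.27 in the double-negative population and passed in no comparison. Over all members, 26 of the 55 pairwise calls could be read on another tested probe set, with 54 such readings in all. Of these, 53 had the same sign, 40 also passed in that direction and 0 passed in the other.

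Isoenzymes of one family changed unequally. The log2 ratio of 2 members was taken within each array and compared over the 4 populations by a exact permutation test of the F statistic, adjusted over the 15 pairs. With 15400 distinct splits the smallest p is 6.49e-05. Of the 15 pairs 12 passed. Pairs among the phosphofructokinases or the glucose transporters share genes, so the 15 are not independent. Pairs of other genes were not tested, so no background share stands beside this count. The ratio depends on the probes, so only its change between populations has a meaning and not its level.

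The largest change was that of Pgam1 against Pgam2, with a mean difference from double-negative cells of -3.32 in double-positive, -1.98 in red-only and -2.60 with green alone (adjusted p = 0.000974). No array overlapped between populations for this pair. Eno2 against Eno3 differed by -1.34 in double-positive, -0.29 in red-only and -0.75 with green alone (adjusted p = 0.00317), so Eno3 rose more than Eno2. Hk1 against Hk2 differed by 1.25, 0.18 and 0.99 in the same order (adjusted p = 0.00565). Pfkl against Pfkp differed by -2.05, -0.28 and -1.45 (adjusted p = 0.0026), Pfkl against Pfkm by -0.98, -0.36 and -0.40 (adjusted p = 0.00571) and Pfkm against Pfkp by -1.06, 0.08 and -1.05 (adjusted p = 0.00996). Hk2, Pfkm and Eno2 rose in double-positive cells as well, by less than Hk1, Pfkp and Eno3. Eno1 had no probe set of its own, so the enolase family was compared only in part.

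Among carriers, Slc2a1 against Slc2a4 differed from double-negative cells by -1.12 in double-positive, -1.43 in red-only and -0.44 with green alone (adjusted p = 0.0026). Slc2a3 against Slc2a4 differed by -1.78, -2.04 and -0.15 (adjusted p = 0.00791) and Slc2a1 against Slc2a3 by 0.65, 0.61 and -0.29 (adjusted p = 0.00571). Slc16a1 against Slc16a3 differed by -1.85, -1.15 and 0.22 (adjusted p = 0.0167). Before the double-negative mean was taken off, this log2 ratio ran from 0.05 to 2.18 in green-only arrays. It ran from 0.20 to 0.84 in double-negative arrays, so these populations overlapped. Pfkfb2 against Pfkfb3 (adjusted p = 0.0183) and Aldoa against Aldoc (adjusted p = 0.0472) also passed. Aldoa against Aldoc was lost without double-positive C, double-negative A or C, or any red-only or green-only array (adjusted p up to 0.106). Pfkfb2 against Pfkfb3 was lost without double-positive A (0.0800), and Slc16a1 against Slc16a3 without double-positive B or C (up to 0.0606). Slc2a1 against Slc2a3 and Aldoa against Aldoc were lost on probe sets without shared probes (0.0691 and 0.0514). Aldoa against Aldoc was also lost without the filter on low values (0.0503). Ldha against Ldhb (adjusted p = 0.0744), Pdk1 against Pdk3 (0.378) and Pkm against Pklr (0.551) did not pass. With permutation within experiments, as a replicate block, 13 pairs passed, the added one being Ldha against Ldhb (adjusted p = 0.0260).

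**Figure D4:**
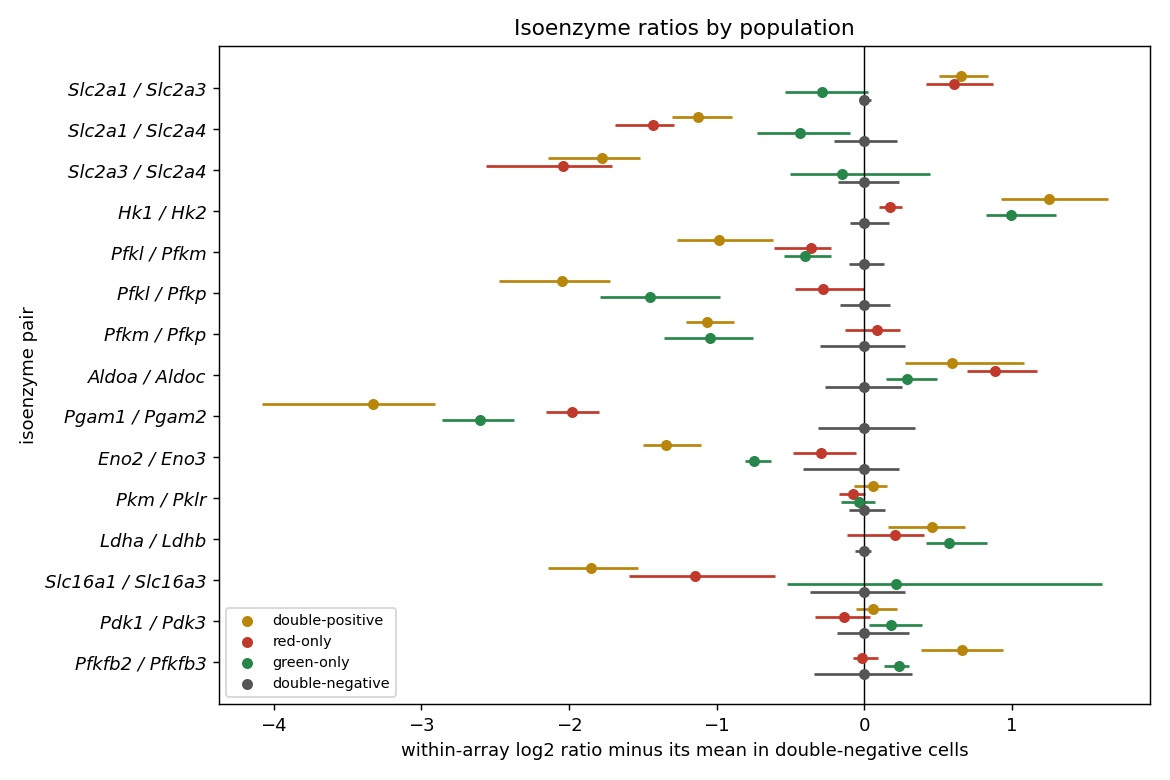
The horizontal axis gives the within-array log2 ratio of 15 isoenzyme pairs minus its mean in double-negative cells. Points are means of 3 arrays and lines run from the lowest to the highest array, and the double-positive mean of Pgam1 against Pgam2 lies at -3.32, the farthest from 0.

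Double-positive and red-only cells differ in eGFP, and 16 of 26 members were higher in double-positive cells and 0 lower, against 12.1% of all genes called, 5.94% higher and 6.17% lower. With the replicate block 19 were higher, against 16.8% of all genes, adding Pgam1, Pkm (0.23, adjusted p = 0.0405) and Slc2a1 (0.52, adjusted p = 0.00252). The median log2 fold change was 0.53. The largest were Pfkp (1.83 ± 0.24, adjusted p = 0.000266), Eno3, Hk1 (1.77 ± 0.20, adjusted p = 7.77e-05) and Pgam2. Of the 26 members, 18 had double-positive arrays all above the red-only arrays and 0 all below, where 31.1% of all genes do not overlap in either direction. The call of Eno2 (0.76 ± 0.21, adjusted p = 0.0316) was lost without double-positive A, red-only A, red-only B or double-positive C (adjusted p up to 0.131).

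Double-positive and green-only cells differ in dsRed. In this comparison 4 of 26 members were called, against 5.63% of all genes: Eno3 and Pfkm higher, Slc16a1 and Slc2a3 lower in double-positive cells (2.85% of all genes were higher and 2.77% lower). Arrays did not overlap for 10 higher and 2 lower members (22.4% of all genes). With the experiment as a replicate block 13 were called, 10 higher and 3 lower, against 9.37% of all genes. The 9 added were Hk2 (0.43, adjusted p = 0.00288), Pdk3 (0.37, 0.00904), Pgam2 (0.83, 0.0105), Eno2 (0.52, 0.0123), Tpi1 (0.35, 0.0270), Ldhb (0.40, 0.0339), Hk1 (0.68, 0.0361) and Ldha (0.28, 0.0396), all higher, and Slc2a1 (-0.46, 0.00965), lower.

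Red-only and green-only cells carry a different single colour. Of 26 members 5 were called, all lower in red-only cells, against 3.09% of all genes called and 1.77% lower: Slc2a3, Slc16a1, Pfkp (-1.20 ± 0.24, adjusted p = 0.017), Hk1 (-1.09 ± 0.20, adjusted p = 0.0107) and Slc2a1. With the replicate block 11 were called, all lower, against 5.75% of all genes, adding Aldoc, Eno3 (-0.69, adjusted p = 0.00997), Pdk1 (-0.49, 0.0114), Pgam2 (-0.80, 0.0173), Tpi1 (-0.39, 0.0218) and Hk2 (-0.27, 0.0437). Without red-only B only 1 member was called, and Hk1 had an adjusted p of 0.0576 there. The call of Pfkp was lost without red-only A, red-only B, green-only B or green-only C (adjusted p up to 0.0842), and without green-only C 3 members were called. The test of the reporter interaction called 11 members with the replicate block, 10 higher and 1 lower (Pgam2, adjusted p = 0.0159), against 15.0% of all genes.

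Neighbouring pathways were read from lists chosen by function. In double-positive against double-negative cells 31.5% of all genes were called, 13.9% higher and 17.6% lower. Each count below for this comparison is to be read against these shares. All 8 glycogen genes tested were higher in double-positive cells, set against double-negative cells, with a median of 1.11. In double-positive against red-only cells 6 were higher, where 5.94% of all genes were. Gyg, the glycogenin that primes glycogen, averaged 1268 ± 143 in double-positive, 266 ± 45.5 in red-only, 771 ± 138 in green-only and 64.7 ± 5.07 in the double-negative population (4.21 ± 0.14 against double-negative cells, adjusted p = 1.43e-09). Pygm, muscle glycogen phosphorylase, averaged 94.2 ± 39.2 in double-positive and 14.7 ± 4.01 in double-negative cells (2.34 ± 0.22, adjusted p = 4.28e-06), Ugp2, which makes UDP-glucose, differed by 1.55 ± 0.10 (adjusted p = 9.42e-08) and Gys1, muscle glycogen synthase, by 1.18 ± 0.12 (adjusted p = 6.38e-06). Of 6 pentose phosphate genes 4 were lower and 0 higher in double-positive cells, set against double-negative cells. In red-only against double-negative cells 5 were lower, where 12.7% of all genes were. Tkt, transketolase, averaged 425 ± 47.1 in double-positive, 599 ± 39.7 in red-only, 512 ± 38.8 in green-only and 796 ± 24.2 in the double-negative population (-0.91 ± 0.09 in double-positive against double-negative cells, adjusted p = 9.29e-06).

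Of 19 other genes of glycolysis and gluconeogenesis 3 were higher and 4 lower in double-positive cells relative to double-negative cells, near the 13.9% and 17.6% of all genes. Pgm1, a phosphoglucomutase that links glycogen to glycolysis, was higher (1.31 ± 0.15, adjusted p = 2.06e-05), as was Bsg, the partner protein that brings MCT1 and MCT4 to the membrane (0.70 ± 0.12, adjusted p = 0.000696). Gpd2, the mitochondrial dehydrogenase of the glycerol phosphate shuttle, was lower (-1.33 ± 0.15, adjusted p = 1.96e-05), as was the phosphoenolpyruvate carboxykinase Pck2 (-0.61 ± 0.11, adjusted p = 0.00095). Of 10 genes for pyruvate entry to mitochondria 2 were higher and 0 lower, among them Pdhb, a pyruvate dehydrogenase subunit (0.57 ± 0.07, adjusted p = 6.83e-05). Pdha1, the subunit that the kinases phosphorylate, was lower in red-only (-0.44 ± 0.08, adjusted p = 0.0014) and green-only cells (-0.34 ± 0.08, adjusted p = 0.00832) than in double-negative cells.

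Of 17 regulators of glycolytic genes 7 were higher and 2 lower in double-positive cells relative to double-negative cells, beside 13.9% and 17.6% of all genes. Hif1a, which encodes the oxygen-regulated factor of glycolytic genes, averaged 218 ± 25.5 in double-positive, 164 ± 11.6 in red-only, 167 ± 20.6 in green-only and 123 ± 8.65 in the double-negative population (0.81 ± 0.11 against double-negative cells, adjusted p = 7.42e-05). The energy sensor subunit Prkaa2 (1.80 ± 0.11, adjusted p = 9.35e-08) and Ppargc1a, a coactivator of mitochondrial genes (2.40 ± 0.20, adjusted p = 1.36e-06), were higher, and Myc was lower (-0.73 ± 0.12, adjusted p = 0.000358). Of 14 other hypoxia target genes 5 were higher and 1 lower, beside the same shares. Ppp1r3c, a glycogen-targeting subunit of protein phosphatase, was higher by 3.07 ± 0.22 (adjusted p = 3.14e-07), Ankrd37 by 1.07 ± 0.20 (adjusted p = 0.00118) and Bnip3 by 0.87 ± 0.15 (adjusted p = 0.000729). Ddit4, an inhibitor of mTOR signalling, was lower (-1.93 ± 0.23, adjusted p = 3.34e-05).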

How the data were processed

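RNA of 12 sorted cell samples was hybridised to Affymetrix arrays, with cRNA from 5 ug of total RNA each, per the labels' protocols. The deposited values are probe set intensities on a linear scale, made with MAS5 per the submitters' processing notes (no version or scaling target is given). The method was taken from these notes and could not be established from the values. These have a common floor and trimmed means that differ between arrays. The main fits used no further normalization. Groups were taken from the sample titles, because the sort description misprints the double-negative population. The table held 45101 probe sets, and 64 controls were left out. The annotation listed 1 gene for 34945, several for 932 (left out) and none for 9160, and 204 had no current symbol.

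Each gene was read on its probe set with the highest mean. To each deposited intensity 4.10 was added (the 25th percentile over the table) before taking log2, so fold changes of low genes are understated. A gene needed a mean log2 value of 3.22, the 40th percentile over probe sets. The model, in limma 3.58.1 under R 4.3.3, had 1 mean per population (lmFit and eBayes, two-sided tests), and p-values were adjusted by Benjamini-Hochberg over 13698 genes at a threshold of 0.05. The F statistics of isoenzyme ratios were tested by permutation in Python 3.11.15, and figures were drawn with matplotlib 3.10.9. The fits and the permutation test were also tested on simulated data.

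The experiment letter pairs the arrays: deviations from population means correlated at 0.116 to 0.423 in all 18 pairs of arrays of 1 experiment, and at most at 0.0718 across experiments. The members, gene lists and alternatives were chosen with earlier results of these data known. Of other lists, at most 4 genes each, those lowest in F-test adjusted p, are named, and marker genes stand beside the results they are set against. Alternatives were other pseudocounts (1 and 6.52), quantile normalization, other filters, the replicate block, an intensity trend with the robust option, only the 6 arrays compared, a minimum log2 fold of 0.5, other probe sets and each array left out. Reading Gapdh on a control probe set was added after seeing the data.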

Additional observations from a re-analysis of the deposited data

Results flagged for a closer look

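Without the replicate block, Ldhb was the only member called in the test of the reporter interaction, against 10.5% of all genes. The colours are sort gates, so this test compares differences between populations and not effects of a reporter. The difference of double-positive minus red-only cells was 0.24 on the log2 scale and that of green-only minus double-negative cells -0.44. The test of the difference between them, the limma interaction, gave 0.67 ± 0.16 (SE, 3 arrays per population, adjusted p = 0.0195), and 0.0519 without red-only B. With the experiment as a replicate block, 10 further members passed this test, where 15.0% of all genes were called.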

How the results depend on the processing

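The number of arrays, 3 per population, limits the precision, and low intensities such as those of Pdk2 and Pdk4 limit what can be read. Every direction of the 55 pairwise calls held in all alternatives: of 550 recomputed calls under 10 settings other than leaving out 1 array or a minimum fold 528 kept their call, 22 were lost and 0 reversed, and of 660 recomputed without 1 array 599 were kept, 61 lost and 0 reversed. Of the 55 calls, 37 held in all 12 fits without 1 array. The kept counts include the setting that only added the Gapdh control probe set as a gene. They also include fits without an array of a population not compared, which reaches a call only through the shared spread. With the replicate block, which pairs arrays by experiment, the number of members called was 13 for double-positive against green-only cells (4 without the block), 11 for red-only against green-only cells (5 without it) and 11 for the reporter interaction (1 without it). The block added calls elsewhere too, moved no other count by more than 1.5 times and ended no call. With the intensity trend and robust option these counts were 2, 3 and 3. With only the 6 arrays compared, 1 member was called for double-positive against green-only cells. Quantile normalization and a filter at the 60th percentile each gave 2 members for the interaction. Without 1 array, red-only against green-only cells gave 1 to 7 members and the interaction 0 to 5. A minimum log2 fold of 0.5 left 12 of 17 members in double-positive, 6 of 7 in red-only and 5 of 6 in green-only cells against double-negative cells, 14 of 16 in double-positive against red-only cells, and all 4 and 5 against green-only cells. Isoenzyme pairs passing numbered 10 with probe sets without shared probes and 10 to 12 without 1 array. The other counts stayed within 1.5 times of their value in all alternatives run. The cause of these changes was not tested.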
